A study of Homo sapiens with 16 samples.

Results

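The small nucleolar RNA host genes are long noncoding RNA (lncRNA) genes whose introns carry small nucleolar RNAs. They were taken as every gene named SNHG followed by a number, together with GAS5, in GENCODE release 44 placed on GRCh37 (hg19). The names gave 29 genes of the 64449 annotated on chromosomes 1 to 22, X and Y, namely 28 SNHG genes and GAS5, and all were annotated as lncRNA genes. A gene was counted when a ChIP-Seq peak lay within 1 kb of its start or inside it, and the start is the 5′ end of the gene record unless another is named.

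The data were 3 lists of ChIP-Seq peaks from HEK293T, a human embryonic kidney cell line, with 1 list each for wild-type cells, POLK-/- cells, which lack the translesion DNA polymerase Pol κ, and DDX23-/- cells, which lack an RNA helicase of the spliceosome. All 3 are labelled as untreated, with Pol κ as the antibody's target. The protocol in the labels used an anti-FLAG gel and the labels mention no tagged protein in these lines, which leaves the captured material uncertain, and the POLK-/- cells are labelled as lacking the named target. The labels do not say whether a knockout line is 1 clone, and 1 list per genotype leaves every difference between genotypes without a replicate check.

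Small nucleolar RNAs guide chemical marks onto ribosomal RNA. Box C/D RNAs direct 2′-O-methylation, box H/ACA RNAs direct pseudouridylation, and the related scaRNAs act in Cajal bodies on the RNAs of the spliceosome. In a host gene they are cut out of the introns after splicing, the spliced exons of many hosts are degraded by nonsense-mediated decay, and several hosts, GAS5 among them, begin with the 5′ terminal pyrimidine tract that also marks genes for ribosomal proteins.

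The lists held 1468 peaks for wild-type, 2451 for POLK-/- and 5945 for DDX23-/- cells, with weakest −log10 p values of 5.28, 4.7 and 4.48. Estimated from the peak caller's background, the POLK-/- library was 2.36 times and the DDX23-/- library 3.95 times as deep as the wild-type one. The fewest fragments at the summit of a peak were 6, 10 and 14. Depth rises in the same order as the number of peaks, so genotype and depth cannot be told apart. Intervals below are exact (Clopper-Pearson for shares, Poisson for fragments), at 95%. Those for shares treat genes as independent draws, those for fragments cover counting error, and neither covers the spread between libraries.

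The sequences that bear on the results come first. SNHG9, which hosts SNORA78, SNHG29, which hosts SNORD49A, SNORD49B and SNORD65, and SNHG30, which hosts SNORD7, were the host genes with a start peak in both knockout lists. Their start regions on GRCh37, from 250 bases before to 50 bases after the gene start, lie at chr16:2014646-2014945, chr17:16341831-16342130 and chr17:33894819-33895118, all on the plus strand. Capitals mark the hexamer CACGTG, the core of the E-box read by the MYC and USF families.
SNHG9: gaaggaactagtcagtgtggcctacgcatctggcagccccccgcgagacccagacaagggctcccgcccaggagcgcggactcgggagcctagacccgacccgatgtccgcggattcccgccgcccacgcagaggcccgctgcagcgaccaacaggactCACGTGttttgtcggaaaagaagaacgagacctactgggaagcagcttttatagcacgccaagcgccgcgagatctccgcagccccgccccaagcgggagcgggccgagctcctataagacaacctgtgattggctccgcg
SNHG29: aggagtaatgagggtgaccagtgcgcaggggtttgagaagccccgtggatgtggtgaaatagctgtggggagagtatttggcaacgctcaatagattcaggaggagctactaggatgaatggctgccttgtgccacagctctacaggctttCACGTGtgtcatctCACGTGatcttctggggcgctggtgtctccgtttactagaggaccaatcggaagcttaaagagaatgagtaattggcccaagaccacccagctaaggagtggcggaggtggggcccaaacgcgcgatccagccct
SNHG30: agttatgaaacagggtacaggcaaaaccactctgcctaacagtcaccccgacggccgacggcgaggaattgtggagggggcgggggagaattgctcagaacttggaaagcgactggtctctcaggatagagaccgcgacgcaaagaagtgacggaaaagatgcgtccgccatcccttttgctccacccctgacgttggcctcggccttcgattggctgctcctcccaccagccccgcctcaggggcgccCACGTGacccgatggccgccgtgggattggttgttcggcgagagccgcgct
SNHG4, which hosts SNORA74A, had the host gene start peak with the highest fold. The 151 bases around its DDX23-/- summit (chr5:138609755-138609905, plus strand) carry CACGTG and the GC box GGGCGG, again in capitals.
SNHG4: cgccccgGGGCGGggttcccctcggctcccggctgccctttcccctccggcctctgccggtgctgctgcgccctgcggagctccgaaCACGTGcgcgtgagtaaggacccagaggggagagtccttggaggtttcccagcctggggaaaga
At the start of the canonical transcript, the isoform that the annotation ranks first, a run of C and T beginning with C is capitalised in the next 3 sequences, each running from 40 bases before to 30 bases from that start. They show such a run at a host with no peak in any list (GAS5, chr1:173837098-173837167, minus strand), at a host with a DDX23-/- start peak (SNHG16, chr17:74553817-74553886, plus strand) and at a host with start peaks in both knockout lists (SNHG29, chr17:16342311-16342380, plus strand). Counted from that start as 0, the run begins at 0 in GAS5, at −6 in SNHG16 and at −1 in SNHG29. In SNHG16 it thus ends before the canonical start.
GAS5: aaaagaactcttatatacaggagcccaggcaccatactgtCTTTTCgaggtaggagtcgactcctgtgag
SNHG16: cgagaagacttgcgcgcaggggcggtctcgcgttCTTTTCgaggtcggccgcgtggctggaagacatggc
SNHG29: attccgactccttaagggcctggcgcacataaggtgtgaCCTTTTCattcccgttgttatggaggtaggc

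Host genes had start peaks in the knockout lists and none in the wild-type list. In wild-type cells 0 of 29 genes had a peak within 1 kb of the start or inside (exact interval 0 to 11.9%), and the simpler limit of 3 counts allows a share of up to 10.3%. The wild-type list had a start peak at 2.55% of all annotated genes, 2.15% of lncRNA genes and 5.61% of protein-coding genes, and 3.1% of all genes had one at the start or inside, so no host gene peak lies within what these shares and 29 genes allow. POLK-/- cells had a start peak at 3 of 29 host genes, 10.3% (2.19 to 27.4%), beside 4.43% of all genes, 3.57% of lncRNA genes and 10.1% of protein-coding genes. A further gene had a peak inside only, giving 4 of 29, 13.8% (3.89 to 31.7%). The shares counted in this way were 5.28% of all genes, 4.2% of lncRNA genes and 12.2% of protein-coding genes. The interval of the start share holds all 3 start backgrounds, so 3 genes do not tell them apart.

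DDX23-/- cells had a start peak at 13 of 29 host genes, 44.8% (26.4 to 64.3%). The background in that list was 10.7% of all genes, 8.52% of lncRNA genes and 24.9% of protein-coding genes. The lower bound for the host genes lies above all 3, but the margin over protein-coding genes, 26.4% against 24.9%, is narrow. With peaks at a q of 1e-05 or less, 12 host genes remained, 41.4%, for which no interval or background share was computed. Counting peaks inside the gene as well left the host genes at 13. The background was then 12.7% of all genes, 9.98% of lncRNA genes and 29.6% of protein-coding genes. The last of these lies above the lower bound of 26.4% for the host genes. By start peaks alone, protein-coding genes that hold a small nucleolar RNA in their span were closer, at 205 of 542. Their share, 37.8% (33.7 to 42.1%), lies inside the host gene interval, and with peaks inside counted it was 46.1%. The 48 other lncRNA genes with a small nucleolar RNA in their span had a start peak in 9 cases, 18.8% (8.95 to 32.6%), and the interval overlaps that of the SNHG genes and GAS5.

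**Figure D1:**
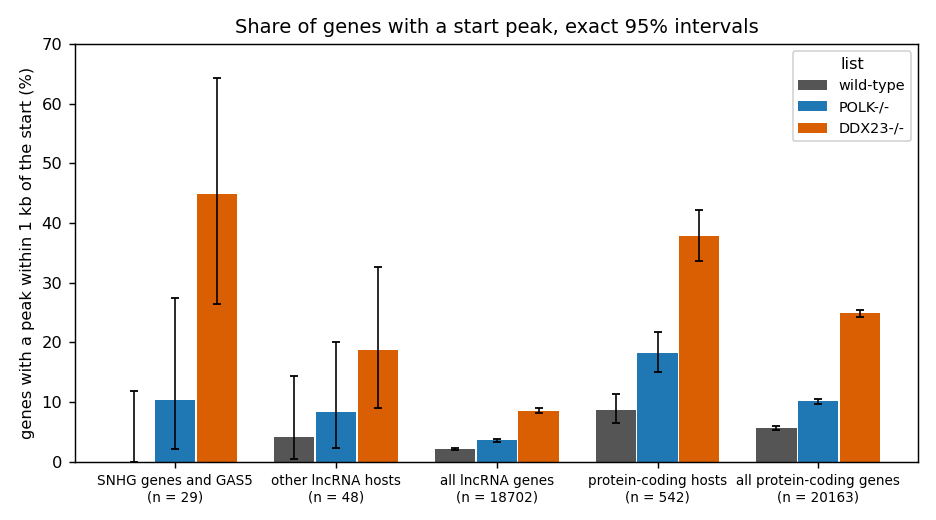
Share of genes (%, vertical axis) with a peak within 1 kb of the gene start in each list, for the 29 host genes and 4 other sets, with exact 95% intervals as bars. The host genes stand at 0% in wild-type, 10.3% in POLK-/- and 44.8% in DDX23-/- cells, and their DDX23-/- interval overlaps that of protein-coding hosts.

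None of the 29 genes had a start peak in all 3 lists, which the wild-type count of 0 fixes. All 3 genes with a POLK-/- start peak also had a DDX23-/- start peak, and 10 had one in DDX23-/- cells only. Most genes with a POLK-/- start peak also had a DDX23-/- one, 643 of 668 lncRNA genes and 1944 of 2028 protein-coding genes. The 3 host genes are thus like the rest of the list in this. Of the 13 host genes with a DDX23-/- start peak, 3 also had a POLK-/- one, 23.1% (5.04 to 53.8%), beside 40.3% of lncRNA genes and 38.7% of protein-coding genes with a DDX23-/- start peak. The POLK-/- interval holds both of these shares. A wild-type start peak was shared by 0 of the 13 (exact interval 0 to 24.7%), beside 24.5% of lncRNA and 22% of protein-coding genes. The exact interval holds both shares, the first only narrowly, while the limit of 3 counts, 23.1%, lies below the lncRNA share.

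The DDX23-/- share depended on how many peaks were taken. With 1468 peaks from each list, those with the smallest p, 0 of 29 host genes kept a DDX23-/- start peak and 1, SNHG29, kept a POLK-/- one. At that size 2.23% of lncRNA genes and 5.73% of protein-coding genes had a DDX23-/- start peak, against 2.17% and 5.8% in the POLK-/- list. SNHG16 kept its intronic peak in both knockout lists.

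Among the 3 genes with start peaks in both knockout lists, SNHG9 lies on chromosome 16 beside RPS2, a gene of the small ribosomal subunit that is transcribed the other way from a start 54 bp upstream. The POLK-/- peak (chr16:2014837-2015091) had a fold of 5.91 over its local background, rank 1524 of 2451 and 27 fragments (17.8 to 39.3), with its summit at +102. The DDX23-/- peak (chr16:2014806-2015123) had a fold of 6.52, rank 2908 of 5945 and 38 fragments (26.9 to 52.2), with its summit at +55. Both summits fell in an SNHG9 exon, and against the RPS2 start, on its own strand, they stood at −156 and −109, so the gene to which the peak belongs cannot be told apart.

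SNHG29 on chromosome 17 had no other gene start within 1 kb. Its POLK-/- peak (chr17:16341743-16342143) had a fold of 5.5, rank 1252 and 36 fragments (25.2 to 49.8), the best rank of a host gene start in that list. The DDX23-/- peak (chr17:16341683-16342088) had a fold of 6.14, rank 2827 and 45 fragments (32.8 to 60.2). The summits, at −157 and −134, were upstream of every annotated SNHG29 transcript start and 23 bp apart.

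SNHG30, also on chromosome 17 and with no other gene start within 1 kb, had its POLK-/- peak (chr17:33894924-33895344) at a fold of 6.63, rank 1664 and 20 fragments (12.2 to 30.9). The DDX23-/- peak (chr17:33894963-33895321) had a fold of 8.99, rank 1608 and 53 fragments (39.7 to 69.3), the best rank of a host gene start in the DDX23-/- list. The summits were 99 bp apart, at −30 and +69, the second 3 bp past the canonical start.

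Fragments of the paired peaks were also divided by the estimated depth. SNHG9 had 11.4 fragments (7.54 to 16.6) in POLK-/- and 9.62 (6.81 to 13.2) in DDX23-/- cells at wild-type depth. SNHG29 had 15.3 (10.7 to 21.1) and 11.4 (8.31 to 15.2), and SNHG30 had 8.47 (5.18 to 13.1) and 13.4 (10.1 to 17.6). The intervals overlap for each gene, but for SNHG30 each value lies outside the interval of the other. For SNHG29 the POLK-/- value lies just outside the DDX23-/- interval. No test of a difference was made, and the intervals leave out the error of the depth estimate. The peaks of each pair overlapped by at least 50% of both.

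SNHG16, which hosts SNORD1A, SNORD1B and SNORD1C and spans 113259 bp on chromosome 17, was the host gene with a peak far from its start. An intronic peak stood 110648 bp into the gene in POLK-/- cells, with a fold of 5.35, rank 1461 and 32 fragments (21.9 to 45.2). The DDX23-/- peak there had a fold of 14.0, rank 933 and 62 fragments (47.5 to 79.5), the highest fold and best rank of a peak at any host gene. At wild-type depth the values were 13.6 (9.27 to 19.1) and 15.7 (12 to 20.1) fragments.

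The intronic peak of SNHG16 lies partly in repeated sequence. Of the 32-base stretches in the DDX23-/- peak, 63.6% occur once in the genome, 26% occur more than 10 times, and the most frequent one occurs 22027 times. The study's methods give Bowtie2 with default settings, which reports 1 place for a read with several, for its Pol κ ChIP-Seq, and whether these lists were made in that way is not stated. The part of repeated sequence in the result was not tested.

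The start of SNHG16 had a separate peak in DDX23-/- cells only, with a fold of 6.01, rank 3925, 29 fragments (19.4 to 41.6) and its summit at +13, in an exon. A divergent lncRNA gene, ENSG00000267546, starts 44 bp upstream of it.

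**Figure D2:**
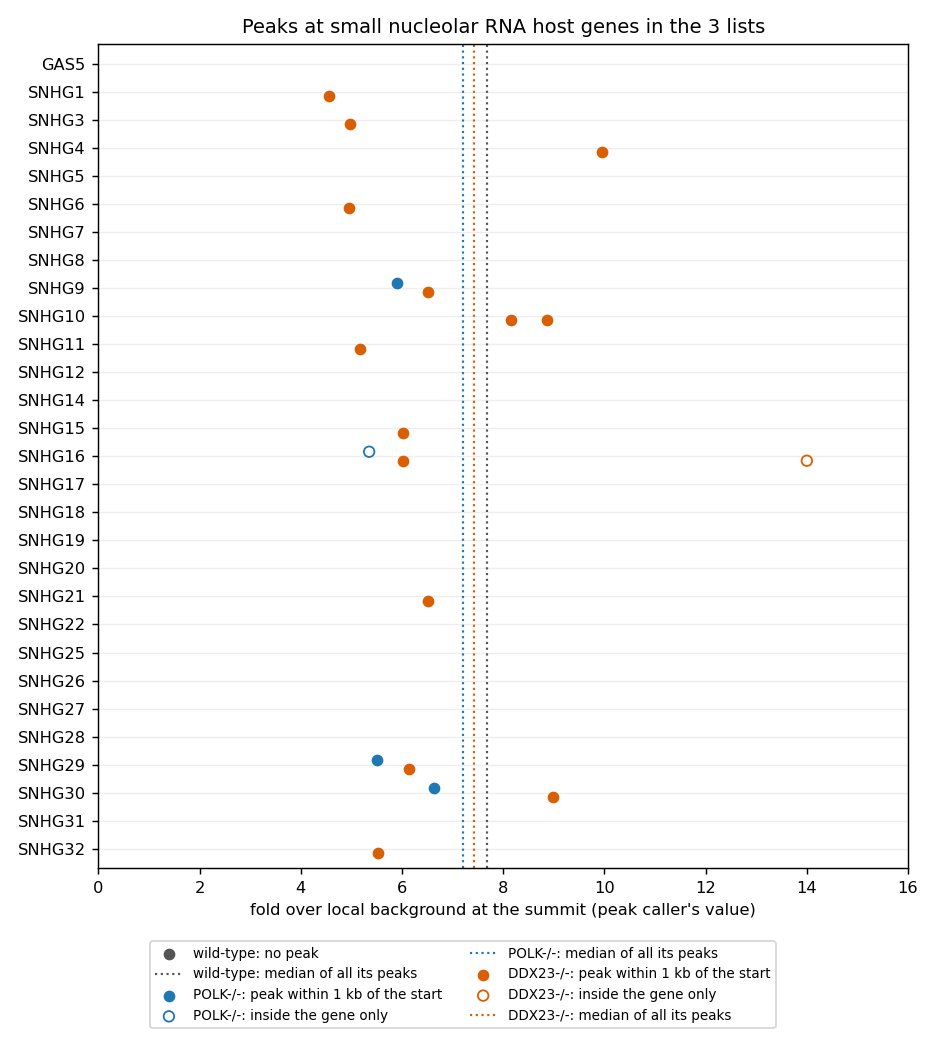
Fold over the local background (horizontal axis, the peak caller's value) for each peak at the 29 host genes, coloured by list, with filled points for peaks within 1 kb of the start and open points for peaks inside the gene only. Dotted lines are the medians of all peaks of a list, 7.68, 7.2 and 7.42 for wild-type, POLK-/- and DDX23-/- cells, and most host gene points lie to the left of them.

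Of the 12 genes that host box C/D RNAs alone, 6 had a DDX23-/- start peak, and SNHG1, SNHG6 and SNHG32 are the ones not yet described. SNHG1, with 8 named box C/D RNAs from SNORD22 to SNORD31, had 33 fragments (22.7 to 46.3) over a background of 6.06, a fold of 4.55, the lowest of the 13, and rank 4811. Its summit at −219 lies 168 bp inside SLC3A2, which encodes the heavy chain of several amino acid transporters and starts 51 bp upstream on the other strand. The peak therefore covers the shared start region of a host gene and a protein-coding gene.

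SNHG6, the host of SNORD87, had the weakest rank of the 13, 5523 of 5945, with a fold of 4.95 and 21 fragments (13 to 32.1). Measured from the gene start its summit lay at +788, and measured from the canonical start at −19. It was the member closest to the 1 kb limit, with its peak edge 599 bp from the gene start. Just outside the limit lay SNHG31, the host of SNORA70I, whose nearest POLK-/- peak was 1084 bp and nearest DDX23-/- peak 1070 bp from its start, and BARD1, a partner of BRCA1, starts within 1 kb upstream on the other strand.

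SNHG32, the host of SNORD48 and SNORD52 on chromosome 6, had a fold of 5.53, rank 3955 and 32 fragments (21.9 to 45.2), with its summit at −348, the farthest upstream. In this peak 55.2% of the 32-base stretches were unique and one occurred 42177 times, whereas every stretch of the other start peaks was unique. Without SNHG32 the DDX23-/- count would be 12 genes, and the narrow margin over protein-coding genes was computed for 13 only.

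Of the 9 hosts of box H/ACA RNAs alone, 5 had a DDX23-/- start peak, SNHG3, SNHG4, SNHG9, SNHG11 and SNHG15. SNHG4 had a fold of 9.96, rank 2157 and 34 fragments (23.5 to 47.5) over a background of 2.05, the highest fold of the 13 start peaks. Its summit at +39 was 10 bp past the canonical start and 389 bp past the start of MATR3, which encodes a nuclear RNA-binding protein on the same strand. SNHG4 stood out in ratio more than in fragments, its fragments being close to the median of 33 for the 13.

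SNHG3, the host of SNORA73A and SNORA73B, had a fold of 4.98, rank 4929 and 26 fragments (17.0 to 38.1). The summit stood at −106 from SNHG3 and −69 from RCC1, the exchange factor of the GTPase Ran, which starts 37 bp before SNHG3 on the same strand. SNHG11, with SNORA60 and SNORA71E, had a fold of 5.17, rank 5231 and 22 fragments (13.8 to 33.3) at +380, and SNHG15, with SNORA9, a fold of 6.02, rank 3379 and 35 fragments (24.4 to 48.7) at +263. These last summits lay 4 bp upstream and 1 bp downstream of another annotated transcript start of the same gene.

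The 4 hosts of scaRNAs split evenly, with SNHG10 and SNHG21 called and SNHG20 and SNHG22 not. SNHG10, the host of SCARNA13, was the host gene with 2 start peaks. The stronger had a fold of 8.87, rank 2535, 33 fragments (22.7 to 46.3) and a summit 55 bp past the canonical start. The second had a fold of 8.15, rank 2865, 29 fragments (19.4 to 41.6) and a summit 94 bp upstream of the gene start, and GLRX5, a glutaredoxin of mitochondrial iron-sulfur assembly, overlaps both on the other strand. SNHG21, the host of SCARNA15, had a fold of 6.52, rank 2908, 38 fragments (26.9 to 52.2) and a summit at −68, with the divergent lncRNA ENSG00000286817 starting within 1 kb upstream.

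No peak in any list was found at or in the other 16 genes, which are GAS5, SNHG5, SNHG7, SNHG8, SNHG12, SNHG14, SNHG17, SNHG18, SNHG19, SNHG20, SNHG22, SNHG25, SNHG26, SNHG27, SNHG28 and SNHG31. They include the hosts with the most RNAs, SNHG14 with 84 entries in the imprinted SNORD116 region and GAS5 with 11, and SNHG27, in which no annotated small nucleolar RNA was found. The nearest peaks to the start of GAS5 lay 43870, 43870 and 43849 bp away (wild-type, then POLK-/-, then DDX23-/- cells), and those of SNHG5, the host of SNORD50A and SNORD50B, lay 35454, 35460 and 35419 bp away. GAS5 and SNHG5 thus had a peak of each list at nearly the same distance, outside the limit. Genes with and without a DDX23-/- start peak had medians of 2 and 1 small nucleolar RNAs and of 5838 and 14477.5 bp in length.

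A neighboring gene start was about as frequent with a peak as without. Of the 13 host genes with another gene start within 1 kb, 6 had a DDX23-/- start peak, 46.2% (19.2 to 74.9%), and of the 16 without one 7 did, 43.8% (19.8 to 70.1%).

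The peaks at the 13 genes had as many fragments as other peaks, over a higher local background. Their fragments at the summit ranged from 21 to 53 with a median of 33, equal to the median of 33 over all DDX23-/- peaks. The local background had a median of 4.55 fragments against 3.03 over all peaks, and the ratio of fragments to background a median of 7.7 (5.44 to 16.6), against 10.8 for all peaks, 11.2 at lncRNA starts and 10.9 at protein-coding starts. Their median fold, in which 1 is added to both terms, was 6.02, and the median rank was 3379, or 56.8% of the way down the list, with 7 of 13 in the weaker part. The 3 POLK-/- start peaks had a median fold of 5.91 and a median ratio of 7.85, against 11.0 over all POLK-/- peaks, and all lay in the weaker part of their list.

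**Figure D3:**
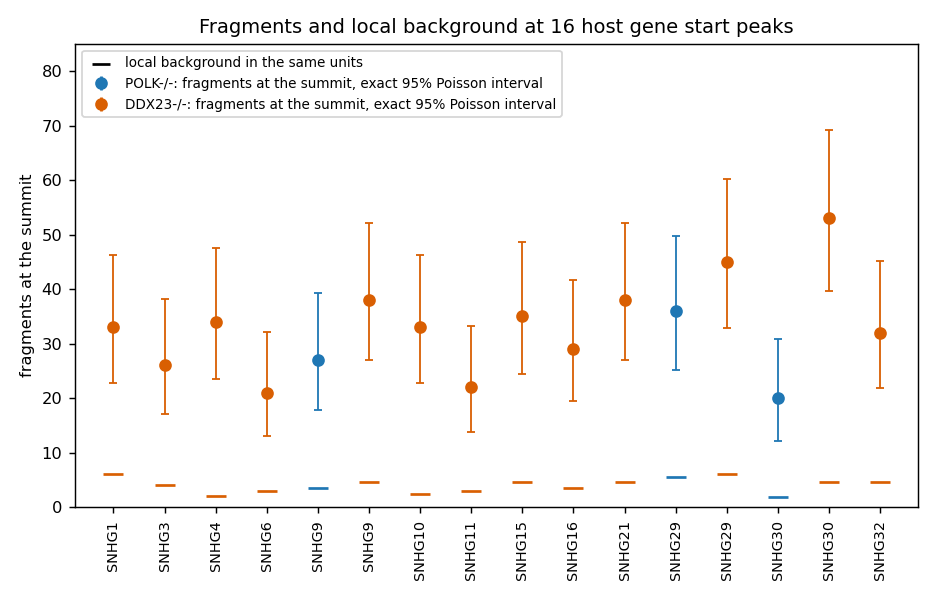
Fragments at the summit (vertical axis) with exact 95% Poisson intervals for the strongest start peak of each host gene and list, and the local background in the same units as dashes. All 16 intervals lie above their own background, which their being called as peaks largely fixes, and the points range from 20 to 53 fragments.

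The DDX23-/- start peaks were scaled to the wild-type depth, and whether depth accounts for the missing wild-type peaks was not tested. The 13 peaks were chosen for being called in the DDX23-/- list, so the scaled fragments may be too high. At wild-type depth they would hold 5.32 to 13.4 fragments, with a median of 8.36. The background was scaled in the same way, but not below the general level of the wild-type list. By this scaling 9 of 13, 69.2%, would pass the weakest −log10 p of the wild-type list. The share among all DDX23-/- peaks was 66.1%. Of all DDX23-/- peaks that would pass, 28.7% overlapped a wild-type peak, and of those that would not, 3.63% did. SNHG30, at a scaled −log10 p of 10.5, SNHG4, at 7.96, and SNHG10, at 7.77, were farthest past the limit, while SNHG1, SNHG3, SNHG6 and SNHG11 fell short of it.

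The rule places every start peak within 1 kb of a start, and the summits were compared inside that window. Against the gene start the 13 DDX23-/- summits ran from −348 to +788 bp with a median of +39, 12 lay within 400 bp, and 5 of 13, 38.5%, lay upstream, beside 52.7% at lncRNA and 46.0% at protein-coding starts. Against the canonical start the median distance, without its sign, was 76 bp, beside 187 bp at lncRNA genes and 77 bp at protein-coding genes, and 4 of 13 lay within 50 bp, 30.8%, beside 22.1% and 38.1%. Within 100 bp of the gene start lay 38.5% of the host gene summits, beside 34.7% and 46.5%. Which of the backgrounds the host genes resemble thus depended on the measure, and no test was made of this.

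**Figure D4:**
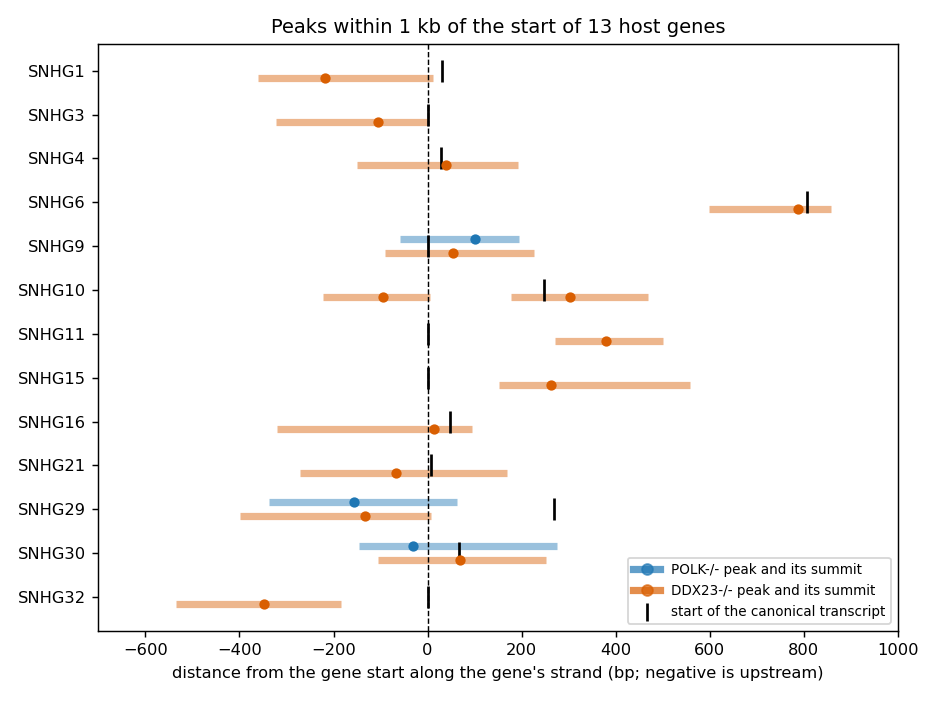
Start peaks of the 13 host genes as bars with their summits as points, placed by distance from the gene start along the strand (bp), in blue for POLK-/- and orange for DDX23-/- cells, with ticks at the canonical start. The SNHG6 peak lies at its canonical start, and the SNHG32 and SNHG29 peaks lie upstream of theirs.

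In base composition the medians of the host gene starts were closer to those of protein-coding genes than to those of lncRNA genes. From 250 bases before to 50 after the start, the median GC content was 59.7% (39.7 to 81.7%), against 48.7% for lncRNA genes and 60.3% for protein-coding genes. The median ratio of observed to expected CpG was 0.81, against 0.29 and 0.694. Host genes with and without a DDX23-/- start peak had medians of 59.3% and 63.0% GC and of 0.81 and 0.849 for CpG, with overlapping ranges.

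CACGTG on either strand was found in the start window of 5 of 29 host genes, 17.2% (5.85 to 35.8%), beside 5.43% of lncRNA and 8.33% of protein-coding genes. It was in all 3 genes with start peaks in both knockout lists, in 0 of the 10 with a DDX23-/- start peak only, and in 2 of the 16 without a start peak, SNHG7 and SNHG25. The first bases lay at −91 in SNHG9, at −99 and −85 in SNHG29 and at −1 in SNHG30, counted from the gene start as 0. In SNHG29 and SNHG30 the hexamer is inside both peaks. In SNHG9 it is outside the POLK-/- peak, at the outer edge of the DDX23-/- peak and past the RPS2 start, within RPS2. SNHG4 carries the hexamer at +51, just past the window, so the 0 of 10 depends on where the window ends. The pattern was noticed after the values were seen, and a match to these letters does not show that a factor binds.

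The other motifs were searched in the same window on both strands. GGGCGG was found in 65.5% of host genes (45.7 to 82.1%), beside 22.6% of lncRNA and 52.1% of protein-coding genes. CCAAT was found in 37.9%, beside 35.4% and 35.8%, and TATAAA in 13.8%, beside 15.9% and 10.9%. Of the 4 motifs, CACGTG and GGGCGG had an interval that left out the lncRNA share, and none had one that left out the protein-coding share.

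A pyrimidine tract, a run of at least 5 C or T beginning with C within 10 bases of the start, was found at the gene start of 7 of 29 host genes, 24.1% (10.3 to 43.5%), beside 32.2% of lncRNA and 32.8% of protein-coding genes. At the canonical start it was found in 11 of 29, 37.9% (20.7 to 57.7%), beside 32.1% and 33.1%. At any annotated transcript start it was found in 25 of 29, 86.2%, beside 43.9% and 72.9%, and the host genes have a median of 10 distinct starts per gene against 1 and 5. Of the 13 genes with a DDX23-/- start peak 4 had the tract at the canonical start, and of the 16 without one 7 did. By this definition the tract did not separate host genes with peaks from those without.

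The genes that build and decay these RNAs were read the same way, against the shares of protein-coding genes given above, 5.61%, 10.1% and 24.9% in wild-type, POLK-/- and DDX23-/- cells. Of 8 core proteins of the small nucleolar ribonucleoproteins, 1 had a wild-type, 2 a POLK-/- and 5 a DDX23-/- start peak. The intervals, 0.316 to 52.7%, 3.19 to 65.1% and 24.5 to 91.5%, each hold the protein-coding share. NOP56, a box C/D core protein, was called in all 3 lists with folds of 4.81, 5.24 and 9.4. The others in DDX23-/- cells were FBL, the methyltransferase, with a fold of 5.46, NOP58 with 7.72, DKC1, the pseudouridine synthase, with 6.32, and NHP2, also called in POLK-/- cells, with 6.32.

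Of 10 assembly factors, 0 had a wild-type, 3 a POLK-/- and 8 a DDX23-/- start peak, 80.0% (44.4 to 97.5%), beside 24.9% of protein-coding genes. RUVBL2, an ATPase of the R2TP assembly complex, had a fold of 11.4 and rank 1282, and PIH1D1 and RPAP3 of the same complex had folds of 10.9 and 10.2 and ranks 1524 and 2031. NOLC1, a chaperone of these particles, had a fold of 10.2 and rank 1941. These are the 4 best-ranked of the 8, and the others, NAF1, RUVBL1, ZNHIT3 and ZNHIT6, had ranks of 3149, 4377, 4736 and 4986, so the 8 spread over much the same ranks as the host genes.

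Of 10 factors of nonsense-mediated decay, 1 had a wild-type, 1 a POLK-/- and 6 a DDX23-/- start peak. The first 2 shares, 10.0% each (0.253 to 44.5%), hold the protein-coding shares in their intervals, and the DDX23-/- share, 60.0% (26.2 to 87.8%), has its lower bound just above 24.9%. SMG5 was called in all 3 lists, with folds of 7.96, 4.18 and 10.1. The other best-ranked ones in DDX23-/- cells were SMG9 with a fold of 10.7, UPF2 with 6.2 and SMG6 with 5.99. The 3 lists of genes hold few members, and their intervals overlap that of the host genes.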

How the data were processed

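Peak lists of the pulldown libraries of wild-type, POLK-/- and DDX23-/- HEK293T cells were used, 1 per genotype, and groups were taken from the sample titles. Library numbers inside the peak names differ from the titles in the wild-type and DDX23-/- files, which leaves the library behind these files uncertain. The authors deposited for each peak a fold (scaled fragments plus 1 over local background plus 1), −log10 p and −log10 q values, and a score. Per the labels' processing notes, Bowtie2, MACS2, bedtools, deepTools and hg19 were used. Versions, the control, the threshold and any pooling are not given in the sources used here. No peak ran past a chromosome end of GRCh37.

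Whole fragments at the summit were recovered by solving the MACS2 formulas for fold and p (tolerance 0.01, tested on simulated data) for 1421 of 1423, 2324 of 2324 and 5767 of 5767 peaks, leaving out −log10 p of 200 or more. Depth came from the lowest common background per shortest peak (228, 211 and 196 bp). Small nucleolar RNAs within a gene's span, on either strand, were named from RefSeq (GRCh38.p14, names only), which holds all 29 genes. Python 3.11.15, pandas 2.3.3 and scipy 1.17.1 were used.

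No test across genotypes was made. The members and lists were chosen with earlier results of these data known. All host genes with a peak were named, and up to 4 genes per pathway list by DDX23-/- rank, NHP2 and the other called assembly factors being named besides. Sequences were to be those of host genes with a start peak in all 3 lists, of which there were 0, so those printed were chosen after the values were seen. The sequence at the SNHG16 intron peak is not reported here.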

Additional observations from a re-analysis of the deposited data

How the results depend on the processing

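Of 46 alternatives to 11 results, 43 stayed within the interval of the reported value or within 1.5 times its count. Some of these could not move. A wild-type count of 0 stays 0 with fewer peaks or a narrower window, and it fixes the count in all 3 lists. For the 3 POLK-/- start peaks the interval of a median was their whole range. The POLK-/- share counted as unmoved although it fell from 13.8% to 6.9% with 1468 peaks. With 1468 peaks from each list, the DDX23-/- share of host genes with a peak moved from 44.8% to 3.45%, which is the SNHG16 intron peak alone. Ranking POLK-/- peaks by fold moved the median rank of the 3 start peaks from 1524 to 1757. Taking any annotated transcript start moved the share with a pyrimidine tract from 24.1% to 86.2%. The alternatives at the canonical transcript start were chosen after seeing the data. The wild-type list had no host gene peak and so gave no median, and with 1468 peaks the DDX23-/- list gave none either. No paired analysis was possible because 1 list per genotype was analysed. No replicate could be left out for the same reason. The intervals of the fragments at the summit cover counting error only, and the depth of the control libraries is unknown.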

Other observations

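Among the other lncRNA genes whose span holds a small nucleolar RNA, none of them named SNHG or GAS5, 2 had a start peak in all 3 lists. STARD7-AS1 had folds of 8.14, 11.1 and 15.5 in wild-type, POLK-/- and DDX23-/- cells, with 17, 34 and 69 fragments. ANKRD17-DT had folds of 9.54, 10.1 and 17.8, with 14, 40 and 60 fragments. These values were not scaled to depth, estimated at 2.36 times the wild-type one in POLK-/- and 3.95 times in DDX23-/- cells. The increase from list to list therefore cannot be read as an increase in the knockouts. Both ranked ahead of every SNHG start peak in the DDX23-/- list, at 755 and 769. Their summits in that list stood at +392 and −308 from these starts, and other gene starts nearby were not examined. They were 2 of 48 such genes, 4.17% (0.509 to 14.3%) in the wild-type list, and were chosen after their values were seen. That interval holds the 2.15% of all lncRNA genes and overlaps the 0 to 11.9% of the host genes, so it does not set the 2 groups apart.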
